A study of Mus musculus with 8 samples.

Results

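The transcription factors described here are the 4 members of the early B-cell factor family, Ebf1, Ebf2, Ebf3 and Ebf4, and the homeodomain factor Emx2. They were chosen by name as the factors besides Lhx2 that recognize the elements of odorant receptor (OR) promoters, and each was read from the transcript cluster that carries its symbol alone. All 5 were measured, among 19938 genes with a cluster of their own. The mRNA came from whole olfactory mucosa of mice aged postnatal day 26, on a mixed 129 x C57BL/6J background, and was hybridized to 8 GeneChip Mouse Gene 1.0 ST arrays, 1 mouse per array. The 4 knockout mice were OmpCre:Lhx2(fl/fl), in which both floxed copies of Lhx2 can be deleted. Among the 4 control littermates, control replicate 1 was Lhx2(fl/+) without Cre, and control replicates 2, 3 and 4 were OmpCre:Lhx2(fl/+), so that every mouse carried at least 1 floxed Lhx2 copy and 3 controls also carried Cre. Cre was inserted into the Omp gene and therefore acts in mature olfactory sensory neurons (OSNs), so by design immature OSNs and the other cells of the mucosa keep Lhx2, and mature OSNs need not all have lost it. Mouse numbers in the labels begin with 5, 7 or 9, and this first digit is called the title series. Series 5 held control replicates 1 and 2 and knockout replicates 1 and 2, series 7 held replicate 3 of each group, and series 9 held replicate 4 of each group. The question asked of these genes is whether their own mRNAs changed when Lhx2 was deleted.

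Each OSN expresses a single OR allele, and short promoters and distant enhancers of OR genes carry a homeodomain site beside a site for EBF proteins. EBF proteins, also called Olf-1 or COE proteins, are helix-loop-helix factors that bind a palindromic element as dimers, known as the O/E site, and they were first found in olfactory neurons and in B cells. Ebf1 is required for B-cell development, Ebf2 is a determinant of brown fat cells, Ebf3 acts in neuronal development, and Ebf4 is the most divergent member of the family. Emx2 is a homeobox factor of the developing forebrain and urogenital tract that, like the LIM homeodomain factor Lhx2, can bind homeodomain sites of OR promoters.

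The elements that these factors bind were looked for in promoter windows of RefSeq (build GRCm38.p6), which run from 250 bases before to 50 bases after each gene's start. The O/E motif was written TCCCNNGGG and the homeodomain motif TAATTA, and both strands were read. Among 32851 windows, 6.56% held the O/E motif and 5.29% held the homeodomain motif. Windows were present for 4 of the 5 factors, Ebf1, Ebf3, Ebf4 and Emx2. The matches in the factors' own windows are shown first because they are the elements of the family itself, followed by 3 genes of the odor response of mature OSNs. Of 7 measured mature OSN genes with the O/E motif, 4 passed the test described below as lower in the knockouts. The 3 shown are among those 4, and Kirrel2, Reep1, Umodl1 and Pde4a are not shown. The motif is in capitals, and each line gives 30 bases from 5′ to 3′ on the strand of the gene.
Ebf3 (chr7:137314448-137314477, minus strand): acagcgccgcTCCCGGGGGcttcgagtttt
Emx2 (chr19:59458710-59458739, plus strand): tatgtgatccccgcacTAATTAggctcatg
Cnga2 (chrX:71991772-71991801, plus strand): caagggagagTCCCTTGGGgagcttgggag
Ano2 (chr6:125711111-125711140, plus strand): aagggaacacCCCGAGGGAtggaggcaggt
Gng13 (chr17:25717068-25717097, plus strand): catgtcccacCCCAGGGGAgacctgccaaa
The Ebf3 window held an O/E motif that began 22 bases before the gene's start (position -22), and the Emx2 window held a homeodomain motif within the transcribed part, from position 37. No match was found in the windows of Ebf1 and Ebf4. The O/E motif of Cnga2, which encodes a subunit of the cyclic nucleotide-gated channel of OSN cilia, began at position -67. That of Ano2, which encodes the calcium-activated chloride channel of OSN cilia, began at the same position, -67, and that of Gng13, a G protein gamma subunit, at position -94. A match is a description of the letters, not evidence that the site is used.

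For OR genes the same windows are shown for the 3 receptors per motif with the largest decreases in the knockout mice whose groups did not overlap.
Olfr536 (chr7:140507482-140507511, minus strand): tccccatctgCCCTTGGGAccaggcccctc
Olfr536 (chr7:140507396-140507425, minus strand): gaggcagggcTCCCATGGGgccatggctgc
Olfr1357 (chr10:78618103-78618132, minus strand): gggaatggagTCCCCAGGGctcccaactgc
Olfr1299 (chr2:111661341-111661370, plus strand): gtgagttttgCCCATGGGAcaaagattcaa
Olfr1097 (chr2:86892314-86892343, minus strand): cttttcctggctTAATTAatcttaaagttt
Olfr740 (chr14:50452924-50452953, plus strand): gtaaaactcaatTAATTAttgagatgatga
Olfr1301 (chr2:111754188-111754217, plus strand): tcaatatccatcTAATTAatttttctttgt
Olfr536 held O/E motifs at 2 places, and the windows of Olfr1357 and Olfr1299 also held a homeodomain motif that is not shown. In the windows of Olfr740 and Olfr1301 the gene's start is the start codon, so their matches lie upstream of the coding sequence rather than of a mapped transcription start.

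Ebf3 was the only one of the 5 genes whose mRNA passed the test between knockout and control mice, and it was lower in the knockouts. Ebf4 was lower on every knockout array and Ebf2 was higher on every knockout array, without passing the test across all clusters, while the Ebf1 and Emx2 values of the groups overlapped. Every change was small, at most 0.22 in size on the log2 scale. Values below are log2 expression values as deposited, a change is the knockout mean minus the control mean, and called means an adjusted p under 0.05 from limma with Benjamini-Hochberg adjustment over 23410 named clusters. Of those clusters 8.39% were called, 6.29% lower and 2.1% higher, and 14.3% had groups that did not overlap (7.83% lower and 6.42% higher), so that 1 call and 3 separated groups among 5 genes stand against those shares. Values came from whole tissue, in which fewer cells of a type and less RNA per cell cannot be told apart.

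**Figure D1:**
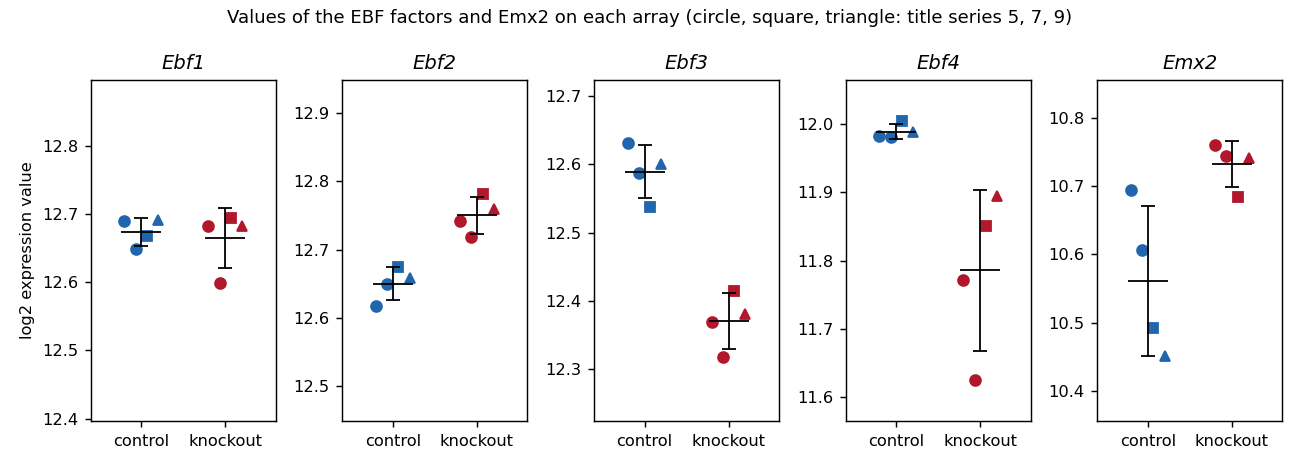
Log2 expression values of the 5 genes on each of 4 control and 4 knockout arrays, each panel spanning the same width on its y axis, with marker shapes for the title series and bars for the mean and SD. All 4 knockout arrays lie below the controls for Ebf3 and Ebf4 and above them for Ebf2, and the groups overlap for Ebf1 and Emx2.

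Ebf1 (transcript cluster 10375360, chromosome 11) had values of 12.69, 12.65, 12.67 and 12.69 in control replicates 1 to 4. In knockout replicates 1 to 4 it had values of 12.68, 12.60, 12.69 and 12.68. The groups overlapped, and only knockout replicate 2 stood below the lowest control. The change was -0.01 ± 0.05 (SE, n = 4 per group), with a 95% interval of -0.13 to 0.11, and was not called (limma, adjusted p = 0.949). The interval corresponds to a decrease of at most 8.6% or an increase of at most 7.87%, which limits how much Ebf1 mRNA can have moved on this scale.

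Ebf2 (cluster 10416126, chromosome 14) stood at 12.62, 12.65, 12.67 and 12.66 in the controls. In the knockouts the values were 12.74, 12.72, 12.78 and 12.76. Every knockout was above every control, and within each group the values differed little, with an SD of 0.024 in controls and 0.027 in knockouts. The change was 0.10 ± 0.05, an increase of 7.2% with an interval from -1.09% to 16.2%. It was not called by limma (adjusted p = 0.359). The methods' t-test, which uses each cluster's own spread alone and called 7.28% of clusters, called it on the same values (adjusted p = 0.0254). Within title series 5, 7 and 9 the changes were 0.10, 0.11 and 0.10.

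Ebf3 (cluster 10568735, chromosome 7) stood at 12.63, 12.59, 12.54 and 12.60 in the controls. The knockout values were 12.37, 12.32, 12.41 and 12.38. All knockouts were below all controls, and the nearest values of the groups, control replicate 3 and knockout replicate 3, came from the same title series. The mean of Ebf3 fell by 14.1%, a change of -0.22 ± 0.05 with a 95% interval of -0.34 to -0.10 (limma, adjusted p = 0.034). Its changes within title series 5, 7 and 9 were -0.27, -0.12 and -0.22. The call sits close to the threshold. It was kept only without control replicate 3 when 1 array was left out at a time, with adjusted p from 0.0436 to 0.122, and was lost when unnamed clusters were tested too (adjusted p = 0.064, where 4.82% of clusters were called). The methods' t-test also called it (adjusted p = 0.0068), but it takes the same group means, so its direction could not differ.

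Ebf4 (cluster 10476108, chromosome 2) had control values of 11.98, 11.98, 12.00 and 11.99. Its knockout values were 11.77, 11.62, 11.85 and 11.90. The groups did not overlap, but they spread unequally, with an SD of 0.011 in controls and 0.12 in knockouts. The change was -0.20 ± 0.07, a mean that fell by 13.2%, and was not called (adjusted p = 0.126). By title series it was -0.28 in series 5, -0.16 in series 7 and -0.09 in series 9, and the lowest array, knockout replicate 2, also had the lowest knockout values of Ebf1, Ebf2 and Ebf3. Without that replicate the change was -0.15.

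Emx2 (cluster 10464391, chromosome 19) had the widest controls of the 5 genes, at 10.69, 10.61, 10.49 and 10.45. The knockouts stood at 10.76, 10.74, 10.68 and 10.74. Control replicate 1, the mouse without Cre, was above knockout replicate 3, so the groups overlapped. The change was 0.17 ± 0.07, an increase of 12.6% with an interval from 1.43% to 25.1% (adjusted p = 0.203). Within title series 5, 7 and 9 it was 0.10, 0.19 and 0.29. Without control replicate 1 the change was 0.22 and was again not called.

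A gene that passes a test beside one that does not is not thereby shown to differ from it, so the changes of the genes were compared with each other directly. On every array the value of one gene was subtracted from that of another, which removes any scaling shared by the whole array, and the 4 knockout differences were set against the 4 control differences by an exact permutation test, two-sided, that enumerates all 70 ways to divide the arrays into 4 and 4. The smallest p this design can give is 0.0286. Of 10 pairs, 7 reached it (adjusted p = 0.0408 over the 10 pairs in this exact test). A pair reaches it when its knockout differences all lie on one side of its control differences. How often other pairs of genes do so was not counted, and among single clusters 14.3% had groups that did not overlap. The pairs share genes, so the 7 are not separate results. The exact test over all arrays ignores the title series. With labels exchanged only within a series there are 24 assignments and no pair can go below an exact permutation p of 0.0833, which cannot pass the threshold. All 7 pairs reached that value, and so did Ebf1 minus Emx2. In each of the 7 the difference had the same sign in all 3 title series. Ebf3 and Ebf4 both moved down against Ebf1, against Ebf2 and against Emx2, and Ebf2 moved up against Ebf1.

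The change of Ebf2 exceeded that of Ebf3 by 0.32, with a 95% interval of 0.24 to 0.40, and that of Ebf4 by 0.30, with an interval of 0.18 to 0.42. Ebf1 minus Ebf3 was 0.21 (interval 0.16 to 0.25) and within title series 5, 7 and 9 it was 0.24, 0.15 and 0.21. Ebf1 minus Ebf4 was 0.19 (interval 0.09 to 0.30), and its test was lost when any 1 control array was left out (exact permutation test, adjusted p = 0.0714 to 0.0816). These values describe a family whose members did not move together, with Ebf2 highest, Ebf1 between, and Ebf3 and Ebf4 lowest in change. Against Emx2, Ebf3 changed by -0.39 (interval -0.53 to -0.25) and Ebf4 by -0.38 (interval -0.59 to -0.16), the latter lost without knockout replicate 2 (exact permutation test, adjusted p = 0.0816). Ebf1 minus Ebf2 was -0.11, the smallest of the differences that passed.

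For 3 pairs the test did not pass, and their intervals say how far apart the changes may lie. The intervals of all pairs come from a t distribution with a pooled SD, not from the permutation test, and ignore the title series. That of Ebf1 minus Emx2 is wholly negative although its permutation test did not pass. Ebf3 minus Ebf4 was -0.02 (interval -0.14 to 0.10, exact permutation p = 0.743). Ebf2 minus Emx2 was -0.07 (interval -0.25 to 0.11, exact permutation p = 0.343). Ebf1 minus Emx2 was -0.18 (interval -0.34 to -0.02), with an exact permutation p of 0.0571, and the pair passed on quantile normalized values (adjusted p = 0.0357). It passed as well when control replicate 1 was left out (adjusted p = 0.0408).

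**Figure D2:**
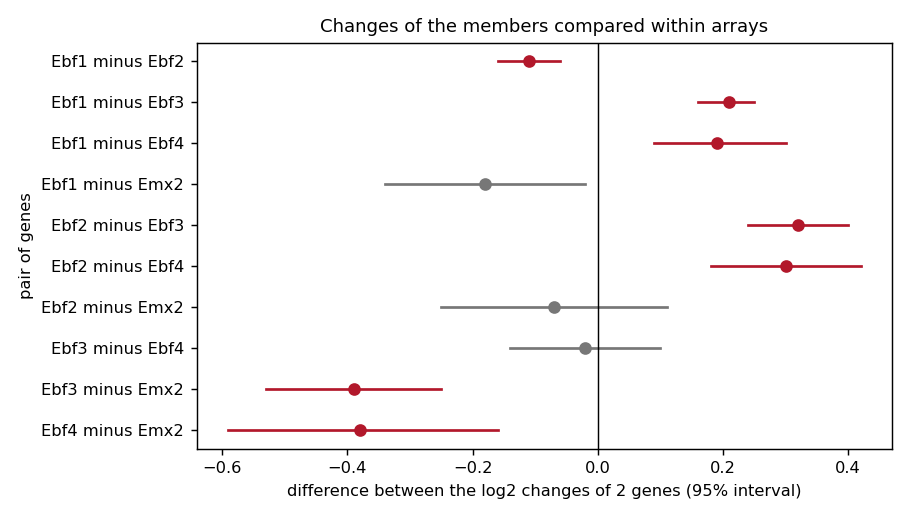
Differences between the log2 changes of each pair of the 5 genes, computed within arrays, with points for the estimate and lines for the 95% interval from a t distribution. Red marks the 7 pairs with adjusted p under 0.05 in the exact permutation test, from -0.39 for Ebf3 minus Emx2 to 0.32 for Ebf2 minus Ebf3, and grey marks the other 3.

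The direction given to a single gene depends on how the arrays are scaled, and this matters here because mature OSN mRNAs as a group were lower in the knockouts. Of 19 measured mature OSN genes, 15 were called lower and 0 higher, with a median change of -0.42 beside 0.05 over all clusters tested. When each array was centred on the mean of this list, the median of all clusters rose to 0.57 and 92.3% of clusters were called higher. All 5 genes were then higher, by 0.51 for Ebf1, 0.62 for Ebf2, 0.30 for Ebf3, 0.31 for Ebf4 and 0.69 for Emx2. The study adjusted to mature OSN content with a much longer list of mRNAs, which was not used here. The mean reduction it reported by that list was slightly smaller than the falls of Ebf3 (14.1%) and Ebf4 (13.2%). An adjustment of that size would raise the changes of all 5 genes alike, by less than this setting. It was not run here, so the direction of each gene after it is not settled. On the scale used here the changes of Ebf3 and Ebf4 lay below the median of all clusters and those of Ebf2 and Emx2 above it. Centring each array on its median over all named clusters gave 0.05 for Ebf1, -0.16 for Ebf3, no longer called (adjusted p = 0.119), and 0.23 for Emx2, now called (adjusted p = 0.0415, where 10.1% of clusters were called). The within-array differences between the genes are the same under any such centring.

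**Figure D3:**
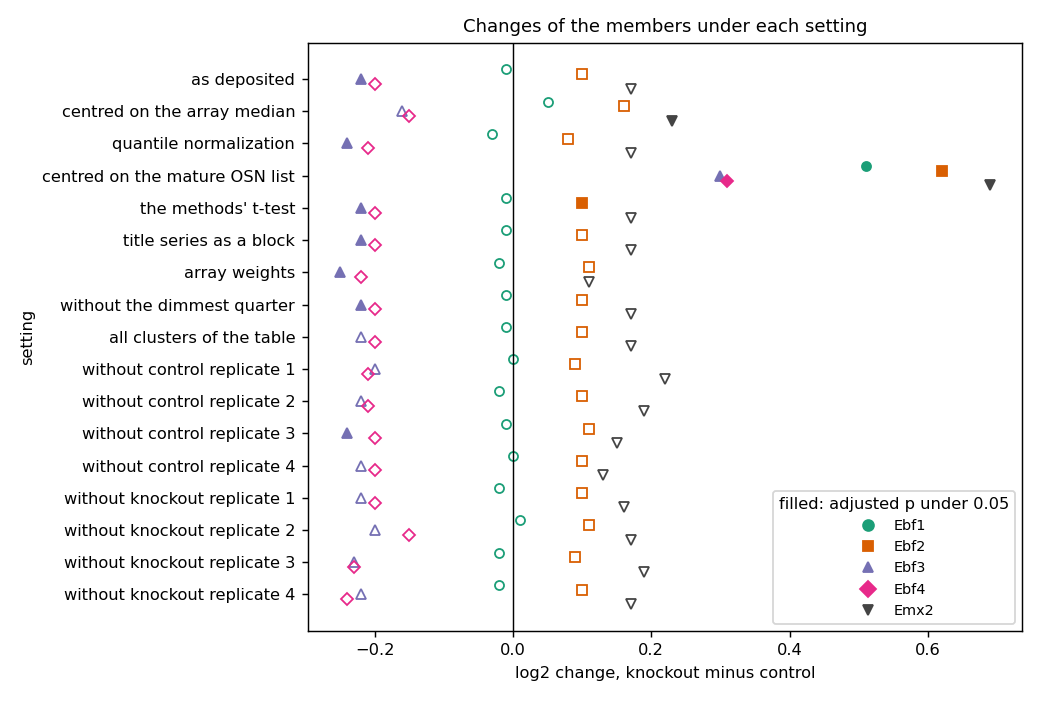
Log2 changes of the 5 genes on the deposited scale and under 16 alternative settings, filled where adjusted p was under 0.05. The values move together under both centrings, to 0.30 to 0.69 when arrays are centred on mature OSN genes, while the order with Ebf2 and Emx2 above Ebf1 and Ebf3 and Ebf4 below it recurs in every setting shown.

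EBF genes are also expressed outside OSNs, and the markers of such cells were read on the same arrays. None of 10 measured B-cell genes was called, with a median change of 0.00 and per-array means of 7.27 to 7.34 in controls and 7.28 to 7.46 in knockouts. None of 7 adipocyte genes was called either (median 0.01, controls 7.74 to 7.81 and knockouts 7.73 to 7.85). Fibroblast and pericyte genes, 8 in number, had a median change of -0.05 with 0 called, and 5 cartilage and bone genes a median of 0.06 with 0 called. Within the OSN lineage, 9 basal and progenitor genes had 0 calls and a median of 0.13, and 12 immature OSN genes had 2 lower, 1 higher and a median of 0.02. Sustentacular cells (6 genes, median 0.05), macrophages (6 genes, 0.06) and ensheathing glia (4 genes, 0.09) also had 0 calls. Of 7 genes of respiratory cilia and glands 2 were lower, Tekt1 and Foxj1, with a median of -0.09. The part of cell makeup in the changes of Ebf3 and Ebf4 was not tested beyond these values.

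Of 6 measured genes for proteins that bind or work with EBF factors, none was called, and the median change of their mRNAs was 0.06. Zfp423, a zinc finger protein that binds EBF proteins and blocks their activity in immature OSNs, had a change of 0.21 ± 0.10 (interval -0.02 to 0.43, adjusted p = 0.340) with overlapping groups, and its relative Zfp521 one of 0.07. Chd4, the ATPase of the NuRD complex, stood at 11.44, 11.53, 11.34 and 11.20 in controls. It was higher on each knockout array, at 11.72, 11.59, 11.58 and 11.62, a change of 0.25 ± 0.08 (interval 0.07 to 0.42, adjusted p = 0.104). The CCR4-NOT subunit Cnot3 (0.04), the DNA demethylating enzyme Tet2 (0.05) and the chromatin remodeler Smarca4 (-0.02) had values that overlapped between the groups.

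Among homeodomain factors and their partners, 11 genes besides Emx2 were measured, of which 2 were called lower and 1 higher, with a median of -0.02. Lhx2 itself, the targeted gene, stood at 12.39, 12.33, 12.29 and 12.33 in controls. The knockouts stood at 12.03, 11.99, 12.17 and 12.16, all below the controls, a change of -0.25 ± 0.06 (adjusted p = 0.0383). The call was kept only without knockout replicate 3 when arrays were left out singly. Whether the probes of this cluster lie inside the deleted part of the gene was not examined here. Dlx6, a distal-less homeobox factor, moved the other way. It stood at 9.17, 9.32, 8.80 and 9.03 in controls and at 9.57, 9.74, 9.62 and 9.74 in knockouts, an increase of 0.59 ± 0.11 (adjusted p = 0.00508). The increase was called with each array left out in turn (0.50 to 0.67) and under every scaling tried. Its neighbour and relative Dlx5 was also higher on every knockout array, by 0.44 ± 0.14, without being called (adjusted p = 0.0904). Dlx5 was called only under both centrings, at 0.50 (adjusted p = 0.0416) on the array median. Pknox1, a homeodomain protein of the TALE class, was lower by -0.31 ± 0.08 (adjusted p = 0.0442), a call lost without any 1 of 6 arrays. The difference between groups was -0.02 for Emx1, the closest relative of Emx2 (interval -0.26 to 0.22), -0.03 for Otx2, -0.04 for Six4, 0.05 for Meis1, 0.01 for Dlx3 and 0.12 for Pax6, none of them called. Ldb1, the cofactor that bridges LIM homeodomain proteins, was lower on every knockout array by -0.11 and was not called (adjusted p = 0.316).

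**Figure D4:**
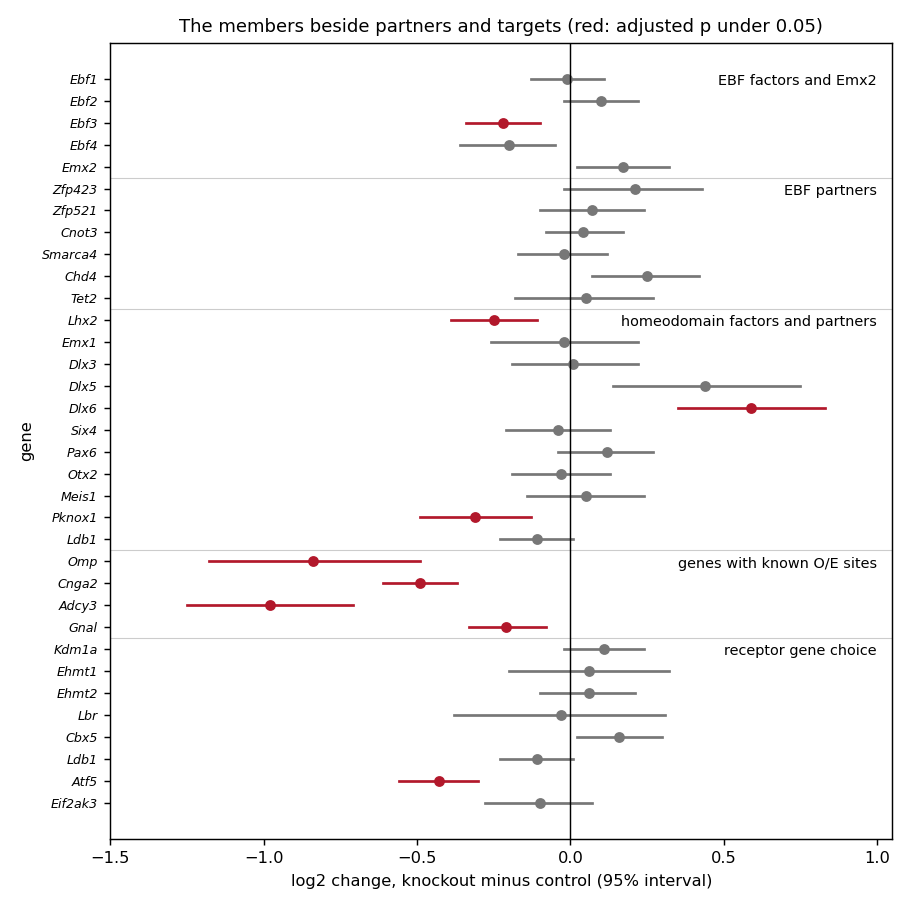
Log2 changes with 95% intervals of Ebf1 to Ebf4 and Emx2, then of EBF partners, homeodomain factors and partners, genes with known O/E sites and genes of OR gene choice, with red for adjusted p under 0.05. Changes of the 5 factors lie between -0.22 and 0.17, inside the range from -0.98 for Adcy3 to 0.59 for Dlx6.

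Of 4 genes in which O/E sites were first described, all were called lower, with a median of -0.66. Adcy3, the adenylyl cyclase of the odor response, changed by -0.98 ± 0.12, and Cnga2 by -0.49 ± 0.05. The olfactory G protein subunit Gnal changed by -0.21 ± 0.06 (adjusted p = 0.0473), a call lost with any 1 array left out. Omp, the olfactory marker protein, stood at 13.78, 13.56, 13.22 and 13.27 in controls and at 12.88, 12.80, 12.37 and 12.43 in knockouts. Because Cre is inserted at this gene, control replicate 1, without Cre, differs from all other mice in its Omp alleles. These genes also belong to the mature OSN list and are no separate evidence about EBF activity. Of 8 genes of OR gene choice, 1 was called, the stress-response factor Atf5 (-0.43 ± 0.06), with a median of 0.01, while the demethylase Kdm1a (0.11) and the heterochromatin protein Cbx5 (0.16) were not called.

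The arrays were then read for OR genes with and without the motifs of these factors. Of 1016 measured OR genes, 849 were called lower and 0 higher, with a median change of -1.04, and 864 had a promoter window. The homeodomain motif was present in 18.4% of 868 OR windows and the O/E motif in 2.53%, beside 5.29% and 6.56% of all windows. The letters are strict, and a window without a match is not thereby shown to lack a site. Adcy3, listed above among genes with known O/E sites, had no O/E match in its window. Base composition differs, with a median GC content of 35.0% in OR windows and 52.7% in all. In 72.5% of OR windows the start is the start codon ATG, against 4.02% of other windows, so that many OR windows do not reach the promoter. In the 239 OR windows whose gene start is not at ATG, 6.69% held the O/E motif and 18.8% the homeodomain motif.

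The median decrease of OR mRNAs was close with and without a homeodomain motif, as described here without a test. The 160 receptors with the motif had a median change of -1.03 and 83.1% were called lower, and the 704 without it had a median of -1.06 and 84.5% were called lower. The 22 receptors with an O/E motif had a median of -1.18 and 77.3% were called lower, against -1.05 and 84.4% of the 842 without it. The order turned for both motifs when only windows whose gene start is not at ATG were read. The medians were then -1.06 with and -1.14 without an O/E motif, and -1.19 with and -1.12 without a homeodomain motif. By the number of TAAT cores, a looser form of the homeodomain motif, the median was -1.18 in 44 receptors with none, -1.07 with 1 to 2, -1.06 with 3 to 4, -1.06 with 5 to 6 and -1.01 with 7 to 17. The shares called lower in the same order were 95.5%, 82.9%, 86.3%, 84.0% and 80.6%. The median changes with and without any TAAT differed by 0.13, and the windows without TAAT had a median GC content of 44.7% against 34.7%. On each array the median value of receptors with TAAT minus that of receptors without it was also taken. Between arrays of a group this had an SD of 0.0451. For the homeodomain motif itself the difference in median change was 0.03 and the SD 0.0344, and for the O/E motif -0.13 and 0.106. These SDs describe values on single arrays, not changes, take no account of the number of receptors and are no test. The part of base composition in these differences was not tested.

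**Figure D5:**
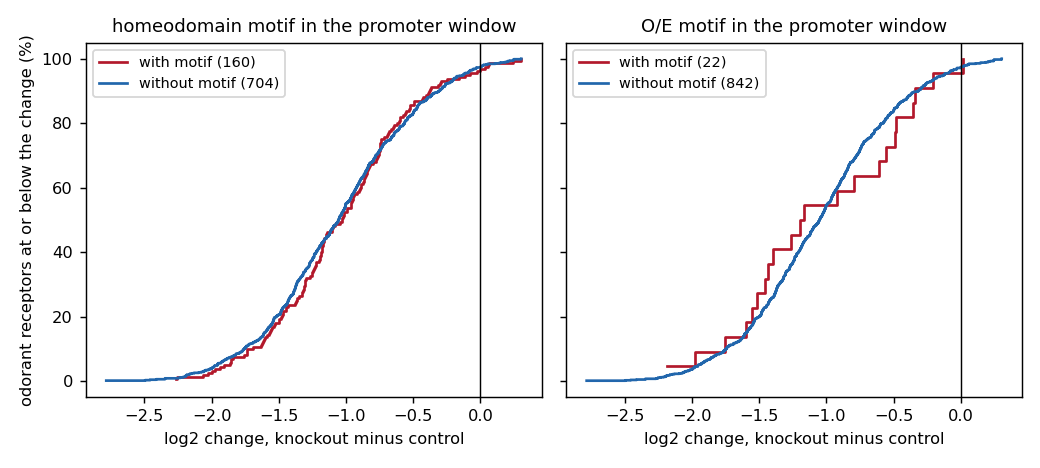
Share of OR genes (percent, y axis) at or below each log2 change (x axis), for receptors with and without a homeodomain motif (160 and 704) and an O/E motif (22 and 842) in the promoter window. The curves run close together for the homeodomain motif, and the O/E curve of 22 receptors crosses the other.

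Receptors whose sites are printed above show how far single ORs fell. Olfr1097, with a homeodomain motif, stood at 9.16, 9.15, 9.38 and 9.11 in controls and at 7.39, 7.12, 6.65 and 6.57 in knockouts, a decrease of 4.81-fold. Olfr536, with O/E motifs, stood at 10.71, 10.48, 11.18 and 10.57 in controls and at 8.71, 8.59, 8.52 and 8.39 in knockouts, 4.55-fold lower. In both the groups lie far apart compared with the spread of mice within a group, but only receptors without overlap could be picked. The changes of the others were -2.26 for Olfr740, -2.07 for Olfr1301, -1.97 for Olfr1357 and -1.76 for Olfr1299, and all were called (limma, adjusted p at most 0.000187). These 6 receptors were picked for their size of change among those whose groups did not overlap. Their separation and calls follow from that choice and are a description only.

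Outside the OR family the O/E motif was present in 43.8% of 16 genes of the mature OSN list (7 genes) beside 8.82% of 14738 measured genes that are not ORs, with a median GC content of 57.2% and 58.3%. It was present in 12.9% of 364 genes called lower and in 11.7% of 333 called higher. The homeodomain motif was in 0 of the 16 mature OSN genes. The 7 with the O/E motif were Cnga2, Gng13, Ano2, Kirrel2, Reep1, Umodl1 and Pde4a, of which 4 were called lower, with a median change of -0.37. Of the other 9 mature OSN genes with a window 8 were called lower, with a median of -0.5. Gng13 stood at 11.37, 11.52, 11.86 and 11.86 in controls and at 10.71, 10.63, 10.62 and 10.65 in knockouts, while Reep1, Umodl1 and Pde4a, not called, had differences of -0.10, -0.11 and -0.07. The list includes genes long known for O/E sites, Cnga2 among them, and no test was made on these shares.

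Genes whose values ran most closely with each factor were found by Pearson's r over the 8 arrays among 17604 genes with a mean of at least 6. For Ebf3 they were the receptor Olfr362 (r = 0.993), Lhfpl4 (r = 0.992) and Tenm2 (r = 0.99), all 3 called lower. For Ebf2 they were Epb41l2 (r = 0.99), Zdhhc23 (r = 0.983) and Ctnna2 (r = 0.983), all 3 called higher. The nearest to Ebf4 was Wdr7 (r = 0.972), to Emx2 Numbl (r = 0.971) and to Ebf1 Trex1 (r = 0.933), and none of these was called. Among the factors themselves, Ebf3 ran with Ebf4 (r = 0.88) and opposite to Ebf2 (r = -0.86), and both Ebf3 and Ebf4 ran opposite to Emx2 (r = -0.69 each). The arrays hold both groups, so these values carry the group difference and the title series as well as any other shared variation. After each group's mean was subtracted the nearest genes were others, Zfp869 for Ebf3 (r = 0.98), Eri3 for Ebf2 (r = 0.991), Carns1 for Ebf4 (r = 0.982), Lrrc8d for Emx2 (r = 0.973) and 4930579F01Rik for Ebf1 (r = 0.982). Before and after that step, the nearest genes were picked as the highest of 17604 over only 8 arrays. Part of the height of r comes from that choice, and how much was not tested. The calls of the genes nearest to Ebf3 and Ebf2, whose groups did not overlap, follow in part from it too.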

How the data were processed

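Whole olfactory mucosa of 4 knockout and 4 control littermate mice was hybridized to 8 arrays by the authors, who summarized the probes of all exons of a gene into 1 transcript cluster value. The deposited values are log2 expression values from Affymetrix Expression Console (its version is not given, nor are its normalization settings, in sources used here), and ran from 2.35 to 14.6 with array medians from 7.87 to 8.00. The lowest correlation between arrays of a group was 0.987. These are array values, so no sequencing depth applies. Replicates are separate mice, numbered here in the order of the sample records.

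Of 35557 clusters, 23410 had a gene symbol in the platform annotation, 21789 had 1 symbol, 1621 had several and 12147 had none. Of the 21789, 21698 were updated through Entrez IDs. For genes with more than 1 cluster, the brightest was used. Clusters were tested with limma 3.58.1 (lmFit and eBayes) in R 4.3.3, with Benjamini-Hochberg adjustment over the named clusters and a threshold of 0.05. The fit was tested on simulated data with 200 changed clusters. Changes of pairs of genes were compared with an exact permutation test by direct enumeration, and the t quantiles of their intervals came from scipy 1.17.1. Promoter windows came from RefSeq, GRCm38.p6.

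Alternatives were 3 other scalings, the methods' t-test (without the study's adjustment to mature OSN content), the title series as a block, array weights, other filters and leaving out each array. The factors, gene lists and tests were chosen with earlier results of these data known. Named genes were all 5 factors, every measured gene of the partner, homeodomain, O/E-site and OR gene choice lists, up to 4 called or the 2 brightest genes of other lists, the 3 most similar genes per factor and the 3 ORs per motif with the largest decrease among those without overlap. Mature OSN genes with an O/E motif were named as well, after their values were seen.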

Additional observations from a re-analysis of the deposited data

Results flagged for a closer look

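In 66 groups of 4 arrays checked, the factors among them, 5 held an array whose gap to its nearest neighbour exceeded Dixon's critical value as a share of the group's range. Chance flags about 1 in 20 groups. Ebf1 stood at 12.60 in knockout replicate 2 and at 12.68 to 12.69 on the other knockout arrays. Six4 stood at 9.05 in knockout replicate 3 against 9.24 to 9.26. Cnga2 stood at 13.13 in control replicate 2 against 13.11 to 13.12, and at 12.56 in knockout replicate 3 against 12.65 to 12.66. Cbx5 stood at 10.82 in knockout replicate 1 against 10.89 to 10.90.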

How the results depend on the processing

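Results on the 5 factors depended most on scaling. Centred on the array median (median of all clusters 0.11), the values were 0.05 for Ebf1, -0.16 for Ebf3 (not called) and 0.23 for Emx2 (called), and 1028 clusters were called higher. Centred on the mature OSN list, changes were 0.51 for Ebf1, 0.62 for Ebf2, 0.30 for Ebf3, 0.31 for Ebf4 and 0.69 for Emx2, all called, with 856 clusters lower and 21608 higher. There Lhx2 turned to 0.27, Pknox1 to 0.21, Gnal to 0.31, Cnga2 to 0.03 and Atf5 to 0.09. The methods' t-test called Ebf2 (0.10), with 1266 clusters lower and 438 higher at an adjusted p under 0.05, and 1532 and 774 at an unadjusted p under one percent. Ebf3 (-0.22) lost its call over all clusters of the table. Clusters called higher numbered 492, but 1086 with array weights and 975 with a block for title series. Ebf1 minus Emx2 passed after quantile normalization (-0.20).

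With 1 array left out the changes ran from -0.02 to 0.01 for Ebf1 (0.01 without knockout replicate 2), 0.09 to 0.11 for Ebf2, -0.24 to -0.20 for Ebf3, -0.24 to -0.15 for Ebf4 and 0.13 to 0.22 for Emx2. Clusters called lower ran from 1302 to 1421 and higher from 304 to 563, with 304 without control replicate 1 and 318 without knockout replicate 4. Ebf1 minus Ebf4 ran from 0.16 to 0.22, Ebf1 minus Emx2 from -0.22 to -0.14, Ebf4 minus Emx2 from -0.42 to -0.32, and Ebf3 minus Ebf4 from -0.05 to 0.02 (0.00 without control replicate 1, 0.02 without knockout replicate 4). The causes were not tested.

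The difference in median OR change between windows with and without a motif was -0.13 for O/E and 0.03 for homeodomain. It was 0.08 and -0.07 in windows whose gene start is not at ATG, a setting chosen after seeing the data. With the looser homeodomain motif it was 0.13. The labels give no replicate numbers that the groups share, so the pairing of mice could be tried only through the title series. As a block it left Ebf3 called (adjusted p = 0.0296) and Ebf4 (0.0723) and Emx2 (0.0949) not called. With labels exchanged only within the series, a test added after seeing the data, the 7 pairs that had passed (Ebf1 minus Ebf2 -0.11, Ebf1 minus Ebf3 0.21, Ebf1 minus Ebf4 0.19, Ebf2 minus Ebf3 0.32, Ebf2 minus Ebf4 0.30, Ebf3 minus Emx2 -0.39, Ebf4 minus Emx2 -0.38) had an exact permutation p of 0.0833, the smallest possible there (adjusted p = 0.104). Ebf1 minus Emx2, which had not passed, had the same value there.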
